A study of Mus musculus with 2 samples.

Results

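The genes described here are the 10 core components of the mammalian circadian clock, Arntl, Clock, Per1, Per2, Per3, Cry1, Cry2, Nr1d1, Nr1d2 and Dbp, taken by symbol from the GENCODE vM21 annotation of mm10. They are 10 of the 21938 protein-coding genes examined. The assay was DNase-seq: nuclei were digested with DNase I and the cut sites sequenced, so that stretches free of nucleosomes appear as peaks. The tissue was frontal cortex of female B6CASTF1/J mice, the F1 of C57BL/6J and CAST/EiJ, at 25 days of age. All samples belonged to 1 group of 2 libraries with no treatment, mutant allele or control group, and the labels used here state no hour of collection. Both libraries carry the same donor label but separate biosamples, so the spread between them may be technical. With no second condition, all values below are descriptions, and no test between groups was made.

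The clock is a transcriptional feedback loop. BMAL1 (encoded by Arntl) and CLOCK form a heterodimer that binds E-boxes and activates the Per and Cry genes, whose proteins return to the nucleus and inhibit that heterodimer. The same heterodimer drives Nr1d1 and Nr1d2, whose REV-ERB proteins repress Arntl through ROR elements, and Dbp, a PAR-bZIP factor that activates genes with D-boxes. The loop runs in most tissues, cortex included, and is set in the animal by the suprachiasmatic nucleus of the hypothalamus.

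In both libraries, all 10 genes had a promoter peak, meaning a peak within 1 kb of any annotated transcription start site (TSS), against 61.5% of all coding genes. A footprint, a short stretch inside an open region where DNase I cut less often than around it, lay in a promoter peak of both libraries at 10 of 10 genes, against 59.9% of coding genes. Nearly every gene with the peak had the footprint as well, 13142 of 13489, so this count adds little to that of the peaks. All 10 also had a promoter peak in both of the authors' shorter, stricter peak lists, against 55.6%. The promoter value of a gene was the authors' read-depth normalized signal, on a scale they do not state, of the strongest peak at its promoter, as the mean of both libraries. The median over the clock genes was 5.27, beside 2.34 over the 13489 coding genes that had such a peak in each library, whose quartiles were 1.28 and 3.65. By this value 10 of 10 clock genes lay above the median (by construction 50% of genes do) and 9 of 10 above the 75th percentile (25% of genes), Clock being the exception. In bulk tissue a lower value can mean fewer cells with the site open or a less open site in each cell, and these cannot be told apart.

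**Figure D1:**
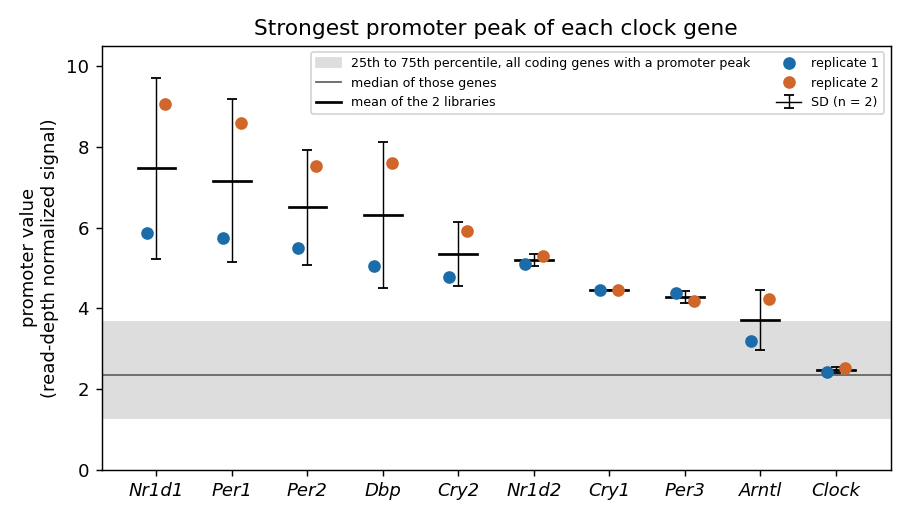
Promoter value (authors' read-depth normalized signal) of each clock gene in replicate 1 and replicate 2, with the mean and SD (n = 2), over the median and the 25th to 75th percentiles of the 13489 coding genes with promoter peaks in each library. Nr1d1 and Per1 stand highest, at 7.46 and 7.16, and Clock lies just above the median of all genes at 2.47.

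The order of the genes was Nr1d1, Per1, Per2, Dbp, Cry2, Nr1d2, Cry1, Per3, Arntl and Clock. The ranges of the library values of Nr1d1, Per1, Per2, Dbp and Cry2 all overlapped with one another, and that of Nr1d2 overlapped with those of Dbp and Cry2. Within each library, Nr1d1 stood above Per1 and Per1 above Per2. The order of Per2 and Dbp differed between the libraries, as did that of Dbp and Nr1d2, of Cry2 and Nr1d2, and of Per3 and Arntl. Per3 and Arntl overlapped as well. Clock, the lowest, did not overlap with any other gene, and neither Nr1d2 and Cry1 nor Cry1 and Per3 overlapped. In 8 of the 10 genes the value was higher in replicate 2, as in 81.8% of the 6343 genes with a promoter value at or above that of Clock. The log2 ratio of replicate 1 to replicate 2 was -0.62 at Nr1d1, -0.59 at Dbp and -0.58 at Per1, beside a median of -0.25 with an SD of 0.27 among those 6343 genes. These are thus the promoters whose means carry the largest spread between libraries.

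The genes of the positive arm had the lowest mean promoter values of the set. Arntl (chr7:113207465-113314126, + strand), which encodes the BMAL1 subunit, had a promoter value of 3.18 in replicate 1 and 4.23 in replicate 2, or 3.70 ± 0.738 (SD, n = 2), above 75.9% of the coding genes with a promoter peak. Its strongest region, chr7:113207081-113207520, was centred at -164 bp from the annotated 5' end of the gene, and held 11 and 9 footprints. It held 10 CCAAT boxes, none of which had a footprint in both libraries. The called region held no full match to the ROR/REV-ERB core, the kind of element through which REV-ERB proteins repress Arntl. The 500-bp window centred on this region did hold a match, without a footprint in both libraries. The Arntl body is long, and most of its other open regions lay deep in introns: chr7:113249241-113249480, 41896 bp downstream of the TSS, had 1.21 and 1.64, the highest mean outside the promoter. In replicate 1 another intronic region, at 61056 bp, was stronger, with 1.46 and 1.11.

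Clock (chr5:76209868-76304792, - strand) encodes the histone acetyltransferase partner of BMAL1. Its promoter value was 2.41 in replicate 1 and 2.53 in replicate 2, or 2.47 ± 0.0826 (SD, n = 2), above 53.0% of genes. The region, chr5:76304661-76304940, was centred at -9 bp and held 7 and 8 footprints. A separate region at 801 bp inside the gene had 1.19 and 1.15, and carried a variant E-box, CACGTT, with a footprint in replicate 1 alone. Beyond the promoter the gene was nearly bare: only an exonic region, 87972 bp from the TSS, was called in both libraries, with 0.571 and 0.754.

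Among the Per genes, which encode the PERIOD inhibitors, Per1 was the most open and Per3 the least in each library. Per1 (chr11:69095217-69109960, + strand), which light and neuronal activity can induce, had a promoter value of 5.73 in replicate 1 and 8.59 in replicate 2, or 7.16 ± 2.02 (SD, n = 2), with rank 129 of 13489 genes. The strongest region, chr11:69094741-69095220, was centred at -236 bp and held 6 and 8 footprints. It contained a pair of canonical E-boxes, at -332 bp and -148 bp. The nearer one had a footprint in both libraries, and the farther one in replicate 2 alone. The stretch spanning the footprints at the nearer site is shown with the E-box in capitals, from the mm10 reference (the C57BL/6J allele):
Per1 promoter, chr11:69095044-69095088, + strand: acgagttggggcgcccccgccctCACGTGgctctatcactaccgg
A GC box, GGGCGG on the opposite strand, lies just before this E-box, at -155 bp, under the same footprint.

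Per1 also had open regions through its introns and on both flanks. The strongest upstream one, 3.28 and 3.36 at -6706 bp, lay inside the neighbouring gene Vamp2 and within 1 kb of its TSS. An intronic region at 1924 bp, chr11:69097001-69097280, had 4.26 and 3.70, and 99.3% of the 38289 regions called in both libraries away from any coding promoter had a lower mean value. It held a full cAMP response element, TGACGTCA, with a footprint in replicate 2 alone. A further intronic region at 2464 bp, with 1.06 and 1.48, contained an E-box that had a footprint in both libraries. Internal Per1 start sites had regions of 3.76 and 4.14 at 3664 bp and of 2.78 and 2.87 at 4834 bp.

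Per2 (chr1:91415982-91459324, - strand), whose product is a main CRY-binding inhibitor, had a promoter value of 5.49 in replicate 1 and 7.51 in replicate 2, or 6.50 ± 1.43 (SD, n = 2), above 97.8% of genes. The region, chr1:91459301-91459620, was centred at -137 bp and held 8 and 9 footprints. It contained a D-box at -121 bp with a footprint in both libraries. The variant E-box CACGTT known from the Per2 promoter lay at 8 bp and had a footprint in replicate 1 alone. Of the regions inside the gene, away from its start, the strongest was intronic, at 30503 bp, with 1.76 and 1.33. A stronger one 46023 bp downstream of the start, with 2.37 and 3.23, lay at the TSS of the neighbouring gene Hes6.

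Per3 (chr4:151003652-151044665, - strand), the PERIOD paralog that the core loop can run without, had a promoter value of 4.38 in replicate 1 and 4.17 in replicate 2, or 4.28 ± 0.149 (SD, n = 2), above 83.9% of genes. The region, chr4:151044621-151045000, was centred at -146 bp and held 8 and 9 footprints. Per3 had 3 D-boxes in its promoter regions, at -154 bp, -201 bp and -666 bp, and the one at -154 bp had a footprint in both libraries. Its strongest region elsewhere was weak, 0.701 and 0.520 in an intron at 37504 bp. Every region of the Per3 window, the promoter included, also lay inside the coding gene Camta1. The D-box at -154 bp is taken up again here. This Per3 box lay wholly within a footprint in each library, unlike that of Per2. The D-boxes of Per2 and Per3 that a footprint overlapped are shown because both have the same core, TTATGTAA, with the D-box in capitals:
Per2 promoter, chr1:91459425-91459457, - strand: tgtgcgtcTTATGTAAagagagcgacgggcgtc
Per3 promoter, chr4:151044795-151044838, - strand: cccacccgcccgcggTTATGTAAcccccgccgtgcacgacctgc

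The Cry genes encode the cryptochromes, the repressors that bind CLOCK and BMAL1 directly. Cry1 (chr10:85131700-85185064, - strand) had a promoter value of 4.46 in replicate 1 and 4.45 in replicate 2, or 4.45 ± 0.00715 (SD, n = 2), above 85.9% of genes. Its strongest region, chr10:85185001-85185220, was centred at -47 bp with 4 and 5 footprints, and an adjoining region at -317 bp had 3.31 and 3.51. An E-box stood at -47 bp, at the centre of the main region, with a footprint in both libraries. Cry2 (chr2:92403646-92434043, - strand) had a promoter value of 4.79 in replicate 1 and 5.91 in replicate 2, or 5.35 ± 0.795 (SD, n = 2), above 93.1% of genes. Cry2 was the higher of the pair in each library. Its region, chr2:92434041-92434340, was centred at -148 bp with 5 and 7 footprints. It had no CACGTG, but a variant E-box, CACGTT, at -189 bp lay under a footprint in both libraries. A GC box at -180 bp lay under the same footprints.

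Off the promoter, Cry2 had an intronic region at 10112 bp, chr2:92423821-92424040, with 1.88 and 2.77, above 95.5% of off-promoter regions. This region held 2 E-boxes, of which the one at 10174 bp had a footprint in both libraries. It also held a ROR/REV-ERB core, TGGGTCA, that had a footprint in both libraries. No other core in the called regions of the 10 gene windows (gene body and 10 kb either side) had one. At Cry1 the strongest region within the gene and away from its start was intronic, 1.12 and 0.851 at 30683 bp. A region of 2.75 and 4.48 beyond the 3' end lay at the TSS of Mterf2. The Cry sequences are shown to set the promoter E-box forms beside the intronic cluster, with E-boxes and the ROR/REV-ERB core in capitals (AACGTG is CACGTT read on the opposite strand):
Cry1 promoter, chr10:85185096-85185128, - strand: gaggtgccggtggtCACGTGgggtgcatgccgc
Cry2 promoter, chr2:92434201-92434250, - strand: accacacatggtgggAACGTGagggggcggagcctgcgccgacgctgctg
Cry2 intron, chr2:92423857-92423971, - strand: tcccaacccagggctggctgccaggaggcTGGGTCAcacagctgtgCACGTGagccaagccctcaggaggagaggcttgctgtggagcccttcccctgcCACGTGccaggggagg

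Nr1d1 and Nr1d2 encode the heme-binding repressors REV-ERB alpha and beta. Nr1d1 (chr11:98767932-98775333, - strand) had the highest promoter value of the set, 5.88 in replicate 1 and 9.05 in replicate 2, or 7.46 ± 2.24 (SD, n = 2). It stood above 99.3% of genes and ranked 92 of 13489. Its region, chr11:98775241-98775480, was centred at -28 bp and held 4 footprints in each library. No CACGTG was found in that region. In regions called in both libraries, the E-boxes of Nr1d1 lay instead in an intron at 1302 bp, chr11:98773841-98774220, and upstream at -8178 bp, chr11:98783381-98783640. A further E-box, at 2293 bp, lay in an intronic region called in replicate 1 alone, with 0.774, and had no footprint in either library.

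The intronic Nr1d1 region had 4.73 and 7.53, a mean above 99.9% of off-promoter regions, and so was nearly as open as the gene's own promoter. It held 3 E-boxes, 2 of which had a footprint in both libraries, and a D-box that also did. Of off-promoter windows of 500 bp, 0.0705% had 3 or more E-boxes. The upstream region had 3.68 and 5.96, above 99.6% of off-promoter regions, with a footprint on its E-box in both libraries.

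Nr1d2 (chr14:18204054-18239127, - strand) had a promoter value of 5.09 in replicate 1 and 5.30 in replicate 2, or 5.19 ± 0.151 (SD, n = 2), above 92.1% of genes. Its strongest promoter region, unlike those of the other clock genes, was centred inside the gene, in an intron at 576 bp (chr14:18238361-18238740). A second region at the TSS, centred at -64 bp, had 3.38 and 4.13. The intronic region held 13 and 12 footprints, and all 3 of its E-boxes and its single D-box had a footprint in both libraries. Footprints on the E-boxes at 600 bp and 555 bp also overlapped GC boxes in both libraries. In replicate 2 the E-box at 452 bp was met only at an edge. Beyond the intronic region and the one at the TSS, nothing in the Nr1d2 window was called in both libraries. The E-box and D-box stretches of both genes are shown because each pairs CACGTG with the same TTACATAA, which is TTATGTAA on the opposite strand, with both motifs in capitals:
Nr1d1 intron, chr11:98774064-98774197, - strand: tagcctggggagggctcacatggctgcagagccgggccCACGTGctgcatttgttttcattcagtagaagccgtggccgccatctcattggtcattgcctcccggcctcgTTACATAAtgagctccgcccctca
Nr1d2 intron, chr14:18238501-18238686, - strand: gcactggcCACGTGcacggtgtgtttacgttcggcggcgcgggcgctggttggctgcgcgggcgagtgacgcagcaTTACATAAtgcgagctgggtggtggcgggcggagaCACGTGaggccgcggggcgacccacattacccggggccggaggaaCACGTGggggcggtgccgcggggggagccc

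Dbp (chr7:45705088-45710203, + strand) is the output gene of the set and a direct CLOCK and BMAL1 target. Its promoter value was 5.03 in replicate 1 and 7.59 in replicate 2, or 6.31 ± 1.81 (SD, n = 2), above 97.3% of genes. The region, chr7:45704781-45705120, was centred at -137 bp and held 11 and 10 footprints. It had no E-box but 2 ROR/REV-ERB cores, neither with a footprint in both libraries. The Dbp E-boxes lay in another region, chr7:45707621-45707860, 2653 bp inside the gene, with 3.26 and 3.44. That region counts as a promoter region because alternative Dbp transcripts start near it. It falls in an intron of the coding transcripts and in an exon of a transcript with a retained intron. Its 2 CACGTG sites and its CACGTT site all had a footprint in both libraries, and are shown in capitals (AACGTG is CACGTT on the opposite strand):
Dbp intron, chr7:45707695-45707845, + strand: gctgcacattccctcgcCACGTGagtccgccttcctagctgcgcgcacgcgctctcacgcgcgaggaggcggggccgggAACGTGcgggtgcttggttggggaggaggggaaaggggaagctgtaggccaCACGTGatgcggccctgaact
The strongest regions beyond the Dbp 3' end, 5.36 and 5.97 at 12933 bp and 3.88 and 5.42 at 10233 bp, lay at start sites of the neighbouring genes Rpl18 and Sphk2.

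**Figure D2:**
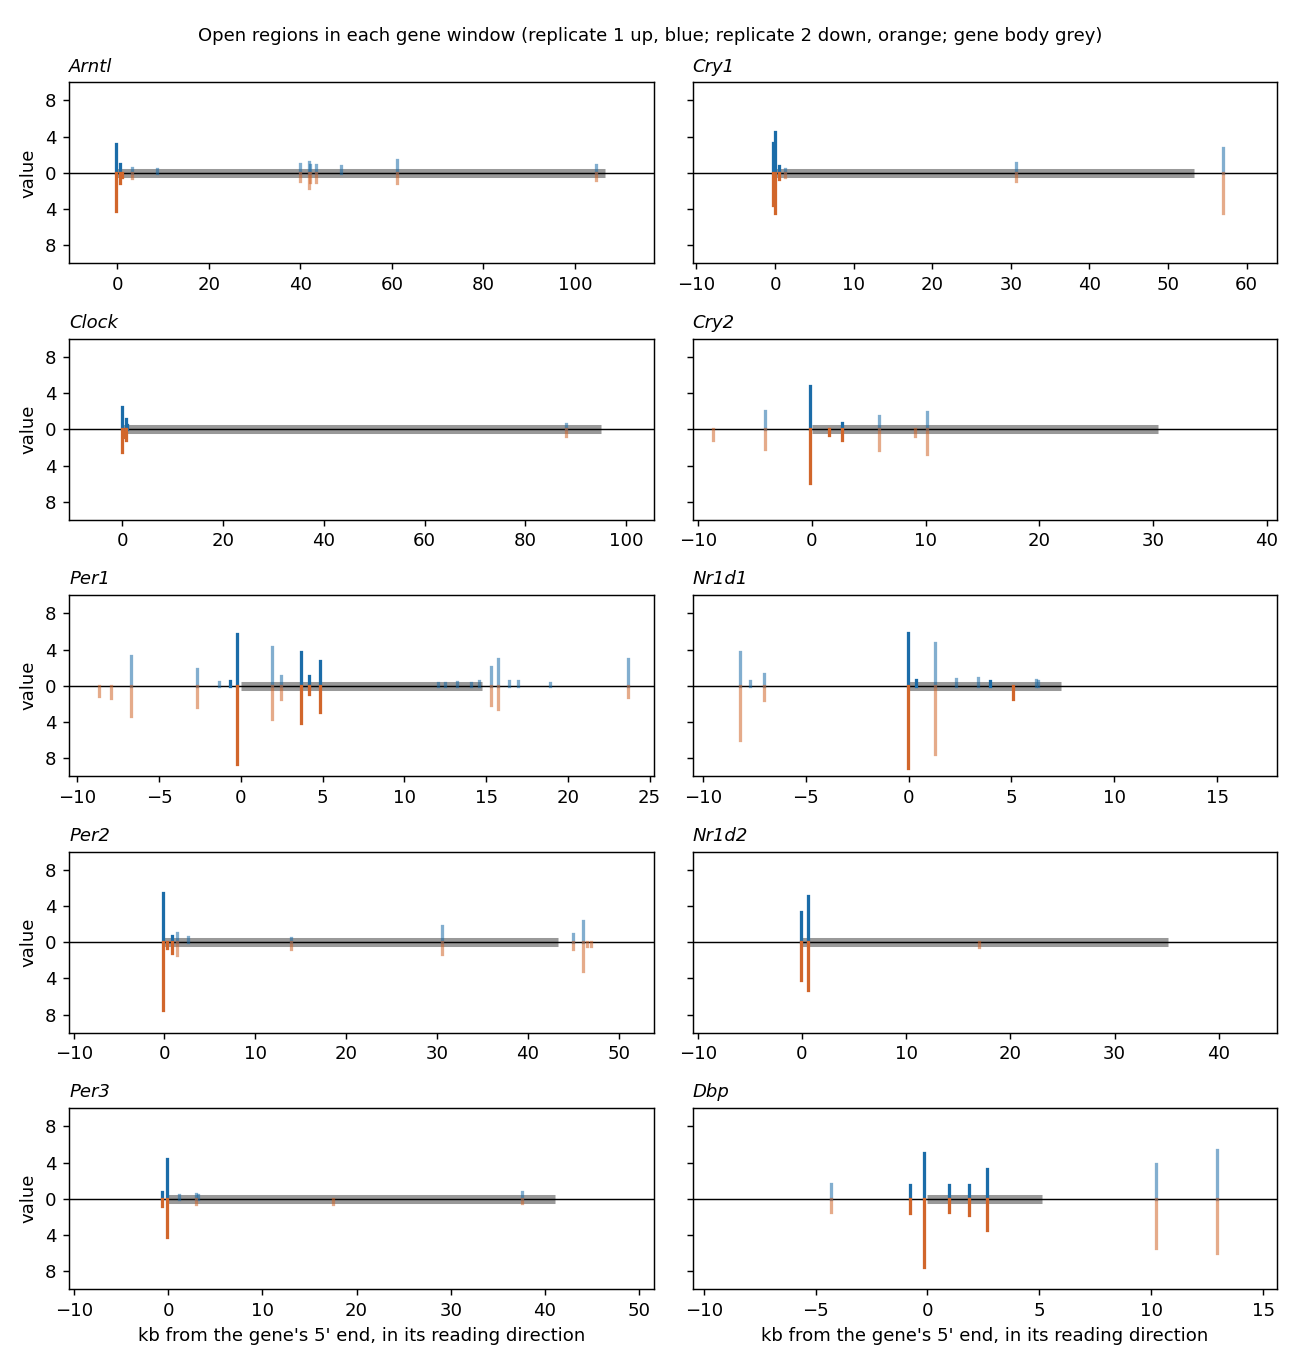
Open regions of each clock gene by distance of the region centre from the gene's 5' end (kb, in reading direction), with the authors' signal of replicate 1 drawn upward and of replicate 2 downward, promoter regions in full colour and others paler. Per1, Nr1d1 and Dbp carry strong regions inside or beside short gene bodies, such as the Nr1d1 intronic region of 4.73 and 7.53, whereas Clock and Per3 have little beyond the promoter.

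Across the 10 windows, 95 separate regions were called, 59 of them in both libraries. Of the 34 promoter regions 25 were called in both libraries, as were 19 of 28 intronic, 1 of 9 exonic, 6 of 11 upstream and 8 of 13 downstream regions. Values of the 59 shared regions ranked alike in the libraries (Spearman's rho 0.950, a description over regions of the same 2 libraries). Of the 34 shared regions away from the genes' own start sites, 7 lay within 1 kb of the TSS of another coding gene. Where the peak of each library had to lie within 1 kb of a TSS by itself, 8 of 10 genes had 2 or more separate promoter regions in both libraries, against 44.6% of genes with a promoter peak. The exceptions were Nr1d1 and Cry2. The second shared region of Cry2, with 0.706 and 1.20 at 2682 bp, is among the 25 above but came within 1 kb of a TSS in replicate 2 alone.

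Density of open regions differed widely among the genes. Per1 had 22 peaks in replicate 1 and 13 in replicate 2, or 50.4 per 100 kb of window, and 99.6% of coding genes with a promoter peak had fewer. Dbp had 8 in each library, or 31.9 per 100 kb, and Nr1d1 11 and 5, or 29.2 per 100 kb. Per1, Dbp and Nr1d1 also had the shortest windows of the set, at 34.7, 25.1 and 27.4 kb. The comparison with other genes was not matched for window length. Peaks near start sites of neighbouring genes were counted in, of Vamp2 at Per1 and of Car11, Rpl18 and Sphk2 at Dbp. At the other end, Clock had 5 and 4 peaks and Nr1d2 2 and 3, and 18.8% and 24.7% of genes had fewer per 100 kb. Footprints in the windows numbered 60 and 47 at Per1 and 49 and 41 at Dbp, and 15 and 13 at Clock.

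**Figure D3:**
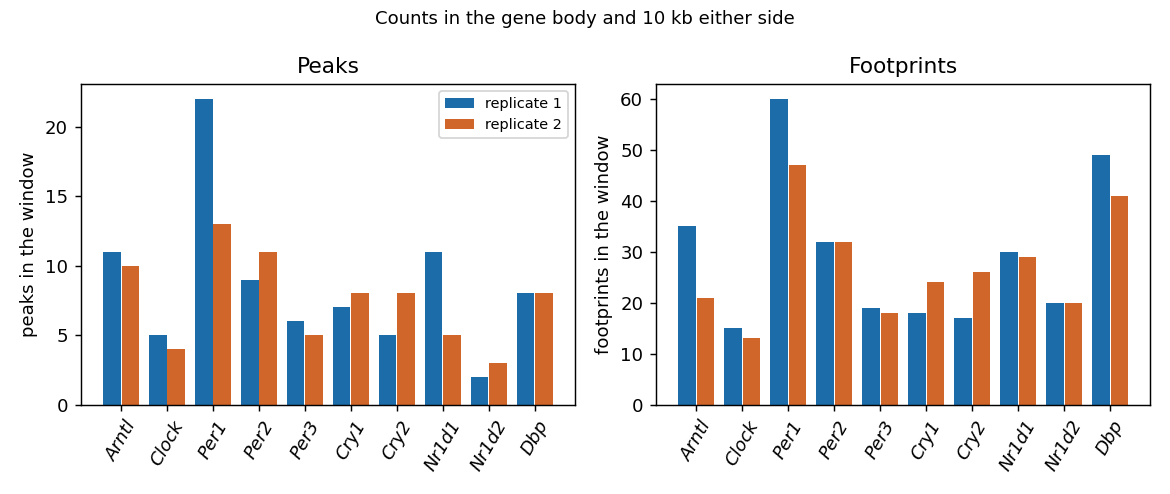
Number of peaks (left) and of footprints (right) in the gene body and 10 kb either side of each clock gene, by library. Per1 has the most of each, 22 and 13 peaks and 60 and 47 footprints, and replicate 1 exceeds replicate 2 in peaks by the most at Per1 and Nr1d1.

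Regions called in 1 library alone had a median value of 0.542, beside 1.89 for those called in both. Replicate 1 had 23 of them, of which 10 lay at Per1, with values from 0.277 to 0.548, and 7 at Nr1d1, from 0.520 to 0.865. At Per1 they included 5 regions in the 3' part of the gene body, between 12074 and 14564 bp from the TSS. Replicate 2 had 13, of which 2 lay at Per1, with 1.18 and 1.31, and 1 at Nr1d1, a promoter region with 1.51. These values were above those of the regions that the same genes had in replicate 1 alone. Of the 23 in replicate 1, a single one held a position that the authors' cut-rate table lists at a false discovery rate of at most 0.05 in replicate 2, while 5 of the 13 in replicate 2 held one in replicate 1. Peak counts at Per1 and Nr1d1 therefore depend on the library, whereas the strongest regions of each were called in both.

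Motifs were searched as exact letters on both strands: CACGTG (canonical E-box), CACGTT (variant E-box), TTATGTAA or TTATGCAA (D-box), TAGGTCA or TGGGTCA (ROR/REV-ERB core), TGACGTCA (cAMP response element), TGACG (its first part, counted inside it as well), GGGCGG (GC box) and CCAAT. A match describes the letters and is not evidence of binding. CACGTG was present in a promoter region of 4 of 10 clock genes, Per1, Cry1, Nr1d2 and Dbp, against 18.5% of coding genes with a promoter peak. Per1 and Nr1d2 each had 3 or more, as did 0.541% of genes. In windows of 500 bp on the strongest promoter region, 3 clock genes (Per1, Cry1 and Nr1d2) had a CACGTG with a footprint in both libraries. Among all genes 14.4% of such windows held the motif and 2.96% held it with a footprint.

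A larger share of E-boxes was overlapped by footprints at the clock genes than at coding promoters in general. A site counted as having a footprint where at least 1 bp was overlapped. Some were met only at an edge, as at Cry1 in replicate 2. In promoter regions 7 of 9 clock gene E-boxes (77.8%) had a footprint in both libraries, beside 16.5% of the 2696 sites in promoter regions of all genes and 29.0% of the 713 sites in genes above the 75th percentile of promoter value. The sites come from 4 genes, and sites in the same region share their cuts. The stronger background was not matched to the clock genes, whose median promoter value of 5.27 exceeded the 90th percentile of 4.89. Counting every open region in the windows, 12 of 19 E-boxes had a footprint in both libraries, and these belonged to Per1, Cry1, Cry2, Nr1d1, Nr1d2 and Dbp. In 500-bp windows on regions called in both libraries, 12 of the 59 clock gene regions (20.3%) held an E-box, beside 10.2% of all 58659 such regions. In 8 of the 59 (13.6%) an E-box had a footprint in both, beside 1.27% of all. Each other motif searched was also more often present with a footprint in the clock gene regions. For GC boxes the shares were 30.5% and 13.3%, and for CCAAT 18.6% and 3.68%. The regions compared were not matched for signal. At Arntl an E-box with no footprint in either library lay in an intronic region of 0.509 and 0.548. In the Per2 window an E-box without a footprint lay in a region called in replicate 2 alone, with 0.445, inside the neighbouring gene Hes6 and within 1 kb of its TSS.

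D-boxes showed a like pattern on fewer sites. In windows on the strongest promoter region, 3 clock genes, Per2, Per3 and Nr1d2, had a D-box, each overlapped by a footprint in both libraries. At Per2 only the edge of the box was overlapped. Of all genes 1.39% had a D-box in that window and 0.119% had one with a footprint. In promoter regions 3 of 7 clock gene D-boxes (42.9%) had a footprint, beside 7.31% of all genes' sites and 15.2% of those in genes above the 75th percentile. ROR/REV-ERB cores in the strongest promoter window were found at Arntl and Dbp and among 7.07% of genes, and neither clock gene had a footprint on one in both libraries. No clock gene had the full cAMP response element in that window, against 4.36% of genes.

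**Figure D4:**
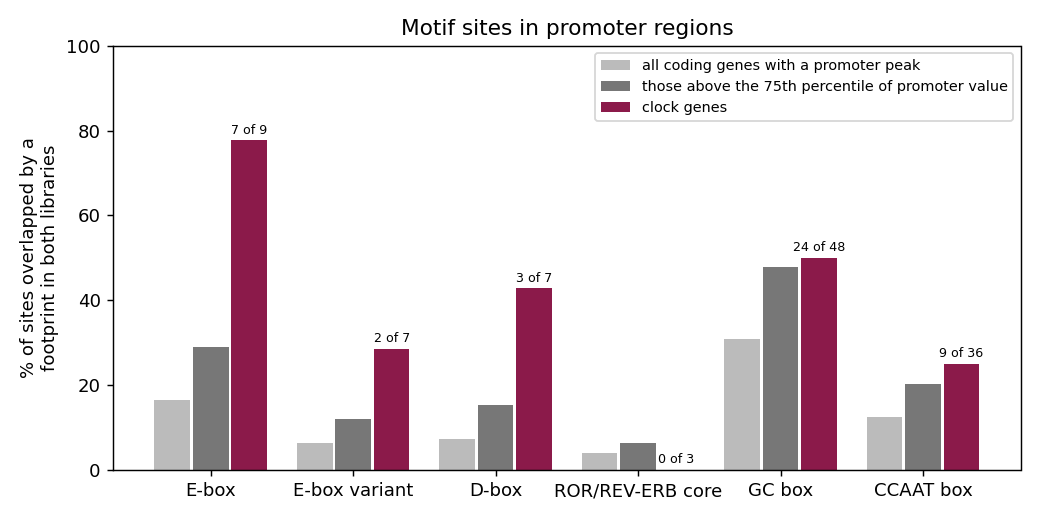
Share (%) of exact motif matches in promoter regions that a footprint overlapped in both libraries, for all coding genes with a promoter peak, for those above the 75th percentile of promoter value and for the clock genes, with the clock gene sites counted above the bars. Canonical E-boxes of the clock genes stand at 77.8% beside 16.5% and 29.0%, while GC boxes of the clock genes, at 50%, stand close to the 47.8% of the stronger promoters.

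The strongest promoter regions of the clock genes held a median of 7.5 footprints in replicate 1 and 8.5 in replicate 2, beside 5 and 4 among all genes. The most were at Nr1d2, with 13 and 12, and at Dbp, with 11 and 10. Nr1d1, the most open promoter, had only 4 in each library. CpG dinucleotides in the 1 kb around the 5' end ran from 32 at Nr1d1, 47 at Per1 and 52 at Dbp to 123 at Clock and 134 at Cry1, beside a median of 60 over genes with a promoter peak. The 3 clock genes with the fewest CpG were thus among the 4 with the highest promoter values.

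Of 25 other genes of the clock pathway, 25 had a promoter peak in both libraries. Their median promoter value was 2.35, and 13 of 25 lay above the median of all genes. The highest were Btrc, a ubiquitin ligase subunit that recognises phosphorylated PER proteins, at 8.46 ± 2.02, Sfpq, an RNA-binding protein found in PER complexes, at 7.48 ± 0.728, Usp2, a deubiquitinase, at 7.31 ± 0.910, and Gsk3b, a kinase that phosphorylates clock proteins, at 7.26 ± 2.03 (SD, n = 2). The paralogs of the activators, Npas2 (1.09 and 1.06) and Arntl2 (0.978 and 1.10), lay well below Clock and Arntl in both libraries. Tef, a PAR-bZIP relative of Dbp, had 6.07 and 7.50, near Dbp. These last 3 genes were chosen after their values were seen.

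The labelled tissue was checked on promoter peaks of marker genes. Peaks in both libraries were found at 7 of 7 neuronal, 3 of 4 inhibitory neuron, 2 of 4 astrocyte, 3 of 4 oligodendrocyte, 2 of 4 microglial and 1 of 3 endothelial markers. None of the 4 markers of the suprachiasmatic nucleus had one, nor any of the 2 choroid plexus, 2 blood and 2 liver markers. The part of each cell type in the clock gene values was not tested. The longer peak lists held 85603 and 87847 peaks, and the footprint lists 214072 and 189951 footprints. Sequencing depth is not given in the sources used here.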

How the data were processed

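Nuclei from tissue were used for DNase-seq, per the labels' protocols. The authors deposited, per library and on mm10, 2 peak lists with a read-depth normalized signal per peak (scale not stated), a footprint list whose only statistic is a constant, 0.01, read here as the threshold p-value or q-value of the call, and a table of false discovery rates (q-values) of the cut rate up to 0.05, per the text deposited with each library. Peaks were called per library. Not given in the sources used here are the aligner, the callers and the depth. DNase I cuts some sequences more readily than others, and reads of both parental alleles were placed on 1 reference, which can affect footprints.

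The longer lists were used. Overlap meant at least 1 bp, and peaks of the libraries that overlapped were joined into regions. A region was a promoter region within 1 kb of a TSS of the gene. Motif sites were read from GRCm38.p6 with pysam 0.24.0 (samtools 1.23.1, Python 3.11.15), and interval code was tested on simulated data. All 10 genes were described, each with its strongest promoter and other region called in both libraries, and motif matches in promoter regions with a footprint in both. Of pathway genes, the 4 highest and any without a peak in both were to be named. Motif sites elsewhere, and CACGTT, were chosen after values were seen, as were features noted as such. Members and lists were chosen with earlier results of these data known. Alternatives covered the peak list, promoter width, TSS set, overlap rule, window and each library.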

Additional observations from a re-analysis of the deposited data

How the results depend on the processing

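All 10 clock genes kept a promoter peak and a footprint in it, and 24 or 25 of the 25 other pathway genes had a promoter peak, under each peak list, promoter width, TSS set, overlap rule and library tried. Only 2 values moved by more than 1.5 times. Clock genes with an E-box in a promoter region numbered 4 for CACGTG and 8 for CACGTG or CACGTT, and footprints in the gene windows averaged 283 per library with 10 kb flanks and 141 in the gene bodies alone, both as the alternatives' wider or narrower definitions imply. Leaving out a library gave a median promoter value of 4.91 to 5.60. No paired analysis was possible because there is 1 group and no test. Precision is limited by 2 libraries of unknown depth, and a region called in 1 library may lie under the listing level of the other.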
